A study of Mus musculus with 22 samples.

Results

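The DNA replication and nucleotide supply genes are 50 genes that were chosen by symbol from the count tables of mouse embryonic heart ventricles, out of 48709 genes in all. They fall into 15 genes of origin recognition and licensing, 17 genes of the replication fork, 9 subunits of the DNA polymerases and primase, 5 genes of nucleotide supply and 4 genes of chromatin replication and histone supply. Poly(A) RNA of ventricles at E13.5 was sequenced in 18 libraries, with 3 libraries in each of 6 groups. Experiment 1 compared LIN9 wt with LIN9 KO ventricles, whose labels give no Sav1 genotype and which are taken here as Sav1 wt. Experiment 2 held control (LIN9 wt and Sav1 wt), LIN9 KO, Sav1 KO and double KO ventricles.

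All 6 groups carried Nkx2.5-Cre, which recombines floxed alleles in cardiac precursor cells. LIN9 KO stands for Lin9 fl/fl, Sav1 KO for Sav1 fl/fl and double KO for both. As the study describes its controls, the LIN9 wt embryos were Lin9 fl/+, so that they also carried a floxed Lin9 allele, whereas the labels call them wild-type. Whole ventricles were used, so each library also held RNA of cells in which this Cre is not active. None of the sources used here states that the 3 libraries of a group came from separate embryos. A legend of the study treats the experiments, rather than the libraries within each, as the biological replicates of the LIN9 comparison. The p-values therefore measure the spread between these libraries, which may be technical.

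DNA replication starts when the origin recognition complex (ORC), with Cdc6 and Cdt1, loads the MCM2-7 helicase onto chromatin in G1 phase, a step called licensing that geminin restrains later in the cycle. In S phase, Cdc45 and the GINS complex turn the helicase into an active fork, at which PCNA clamps the polymerases to DNA and ribonucleotide reductase, thymidylate synthase and dUTPase keep the deoxynucleotide pool supplied. E2F factors are known to control many of these genes at the G1/S transition. LIN9 belongs to MuvB, a complex that joins B-MYB at genes of G2 and mitosis. With other partners, an E2F factor among them, MuvB forms the DREAM complex, which represses genes under E2F control in quiescent cells and early G1. The study also reports strong binding of LIN9 at promoters of E2F target genes in the fetal heart. SAV1 is a scaffold of the Hippo kinases, which restrain the coactivator YAP, and ventricular cardiomyocytes still divide at this stage.

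LIN9 KO ventricles held less mRNA of a few of these genes in both experiments, and most of the others were not called. Rrm2, the small subunit of ribonucleotide reductase, and Dut, the dUTPase that removes dUTP from the pool, fell in every alternative analysis as well. Rrm2 was at 63.0% of LIN9 wt in experiment 1 and at 53.8% of control in experiment 2, and Dut at 73.4% and 64.5%. Pcna and Gins1 fell in both experiments as well, but each lost its call of experiment 1 in 6 of 12 alternative analyses, and Gins1 that of experiment 2 in 4 of 13. In the Sav1 KO background, 15 members were lower with LIN9 KO (11.6% of all genes were), among them all 6 genes of the MCM2-7 helicase, Lig1, Pold2, Uhrf1 and Chaf1b. The calls of Mcm5 and Mcm4 were lost in 8 and 2 of 13 alternative analyses. Mcm2 and Mcm6 were also called lower with Sav1 wt in experiment 2 and Pold2 in experiment 1. Those calls of Mcm2 and Mcm6 were lost in 6 and 2 of 13 alternative analyses, and that of Pold2 in 5 of 12. For no member (0% of all genes) did the effect of LIN9 pass a test of a difference between the Sav1 backgrounds. The LIN9 effect was lower in the Sav1 KO background for 34 of 47 members (50.1% of all genes). Deletion of Sav1 by itself moved none of the members past the threshold, which only 0.017% of all genes passed. The log2 fold changes of that comparison were above 0 in 41 of the 47 tested members (50% of all genes).

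The promoters shown are those of Rrm2 and Pcna, which were lower in every comparison of LIN9 KO with LIN9 wt, as were Dut and Gins1. That of Mcm2 was added after its values were seen. Each is the RefSeq sequence (GRCm38.p6) from 250 bases before to 50 bases after the start of transcription, on the strand of the gene, and capitals mark the words searched for: the CCAAT box (CCAAT, or ATTGG on the other strand) and the cell cycle homology region (CHR, TTTGAA or TTCGAA on either strand), an element through which MuvB is known to bind. The Rrm2 promoter (chr12:24708004-24708303, plus strand) held a CCAAT box that starts 50 bases before the start of transcription:
Rrm2: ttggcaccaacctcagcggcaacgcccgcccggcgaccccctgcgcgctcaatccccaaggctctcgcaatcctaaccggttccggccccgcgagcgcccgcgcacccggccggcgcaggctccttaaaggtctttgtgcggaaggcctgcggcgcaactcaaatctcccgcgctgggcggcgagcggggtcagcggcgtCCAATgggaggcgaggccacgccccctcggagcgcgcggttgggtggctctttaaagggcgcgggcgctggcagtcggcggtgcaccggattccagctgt
The Pcna promoter (chr2:132253131-132253430, minus strand) held an inverted CCAAT box that starts at base -87 from the RefSeq start, which lies 134 bases inside the gene as Ensembl annotates it:
Pcna: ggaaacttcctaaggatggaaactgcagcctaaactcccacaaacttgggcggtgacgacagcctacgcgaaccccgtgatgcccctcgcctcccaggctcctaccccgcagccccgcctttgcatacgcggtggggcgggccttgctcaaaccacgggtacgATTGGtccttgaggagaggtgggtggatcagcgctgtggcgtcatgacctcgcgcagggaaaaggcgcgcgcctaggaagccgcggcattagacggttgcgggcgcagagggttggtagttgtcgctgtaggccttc
The Mcm2 promoter (chr6:88898731-88899030, minus strand) held a CHR word at base -70 and an inverted CCAAT box at base -175:
Mcm2: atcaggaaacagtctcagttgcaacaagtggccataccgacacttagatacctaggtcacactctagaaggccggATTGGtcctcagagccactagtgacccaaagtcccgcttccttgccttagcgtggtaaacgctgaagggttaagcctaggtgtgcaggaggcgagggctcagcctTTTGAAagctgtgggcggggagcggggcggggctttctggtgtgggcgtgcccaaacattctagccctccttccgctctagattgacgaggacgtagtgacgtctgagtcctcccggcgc
None of these 3 windows held any of the E2F words TTTCCCGC, TTTCGCGC, TTTGCCGC and TTTGGCGC on either strand, and no match of 1 motif shared bases with a match of another. The window of Dut lay wholly inside the annotated gene and held no E2F word, CHR word or CCAAT box. Gins1 had no RefSeq promoter of 300 bases.

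Among the members, 42 had a RefSeq promoter of 300 bases. An E2F word stood in 16 of these (38.1%), against 2.6% of the 27025 genes with such a promoter. Some genes had more than 1 promoter window, and a gene was counted when any of its windows held the word. A CHR word stood in 7 (16.7%, against 21.7%) and a CCAAT box in 26 (61.9%, against 41.1%). Of the 13 members with a promoter that fell with LIN9 KO in the Sav1 KO background, 6 held an E2F word, 3 a CHR word and 10 a CCAAT box, whereas 9, 4 and 16 of the 27 members that were not called did. In experiment 1 these stood in 0, 1 and 3 of 4 members that fell and in 15, 6 and 22 of 35 not called. For experiment 2 with Sav1 wt they stood in 2, 1 and 4 of 6 and in 12, 6 and 22 of 33. For Cdc6, Dut and Mcm7 the RefSeq start lies so far inside the Ensembl gene that the window holds no base before the gene's 5′ end, so these windows say nothing of the sequence upstream of it. Without them an E2F word stood in 14, a CHR word in 6 and a CCAAT box in 25 of 39 members. These are matches of letters and not binding sites.

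Total counts lay between 9485599 and 9615274 (median 9539905) in experiment 1 and between 2770741 and 2999877 (median 2935363) in experiment 2, so that values of experiment 2 rest on fewer reads. No pair of libraries of a group agreed within sampling noise, with a chi-square per gene between 1.198 and 24.1. LIN9 KO replicate 3 of experiment 2 stood apart from the replicates 1 and 2 of its group (19.5 and 13.8, against 5.81 between those), and control replicate 1 from the replicates 2 and 3 of control (4.537 and 4.738, against 1.198). Double KO replicate 1 was also farther from the replicates 2 and 3 of double KO (5.23 and 6.70) than these were from each other (2.66), and without it 17 members in place of 16 were called for LIN9 KO in the Sav1 KO background and 10 in place of 12 for double KO against control. Without control replicate 1, the members called for LIN9 KO against control went from 9 to 6, those for double KO against control from 12 to 9, and those for Sav1 KO against control stayed at 0. Levels are given as CPM, the counts of a gene relative to the total of its library, with totals scaled by the TMM method.

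The targeted genes were looked at first. Lin9 was at 29.8, 21.4 and 25.6 CPM in LIN9 wt and at 21.4, 21.3 and 19.2 CPM in LIN9 KO of experiment 1, which is a log2 fold change of -0.31 (SE 0.14, adjusted p = 0.13). In experiment 2 it was at 29.2, 28.1 and 23.2 CPM in control and fell to 13.2, 15.4 and 17.9 CPM in LIN9 KO (-0.80, SE 0.19, adjusted p = 0.0027). The libraries labelled double KO had 23.5, 26.1 and 18.5 CPM and overlapped those labelled Sav1 KO (19.2, 31.4 and 25.6 CPM, adjusted p = 0.586), so Lin9 counts did not separate these groups. Sav1 was at 54.5, 56.2 and 61.9 CPM in control, at 43.1, 36.1 and 43.0 CPM in Sav1 KO (-0.50, SE 0.12, adjusted p = 0.318) and at 44.0, 40.5 and 42.3 CPM in double KO (-0.44, SE 0.12, adjusted p = 0.00873 against control). The floxed alleles lose a single exon and the counts cover whole genes, so these levels do not measure the deletion itself, and groups are named as labelled.

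Of the 50 members, 47 had a mean count above 1 in both experiments and were tested. Cdt1, which helps to load MCM2-7, Gins2, a GINS subunit, and Tk1, the thymidine kinase of the salvage pathway, had 0 counts in all 18 libraries. The whole exonic length of these 3 genes lies inside other annotated genes, so a count of 0 in these tables says nothing of their expression. Among the tested members, the same overlap is largest in Orc1 (87.0% of its exonic length), Fen1 (86.5%), Orc2 (76.5%), Chaf1a (55.2%) and Rfc2 (28.3%). It touches smaller parts of others, among them Pole2 (15.8%), Mcm7 (14.8%), Rfc4 (12.7%), Rfc5 (10.7%) and Lig1 (5.8%). The counts of such genes may hold only part of their reads. Orc1 had 10 to 20 counts per library in experiment 1 and 2 to 12 in experiment 2, and Fen1 had 32 to 61 and 5 to 21, so little can be read from either. Pcna and Tyms have annotated processed copies (Pcna-ps1, Pcna-ps2 and Tyms-ps), between which reads may be shared.

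To compare genes with each other, levels were divided by the exonic length that lies outside other annotated genes (CPM per kilobase). This length joins the exons of all annotated transcripts of a gene, so it can exceed that of the main mRNA. In LIN9 wt of experiment 1, Pcna was highest at 68.6 ± 6.74 (SD, n = 3), followed by Rrm2 at 59.9 ± 7.34, Gmnn (geminin) at 48.2 ± 3.94, Mcm6 at 48.0 ± 1.28 and Dut at 46.6 ± 2.91. Pcna and Rrm2 lay within their spread of each other, as did Gmnn, Mcm6 and Dut. In control of experiment 2, Pcna at 58.0 ± 7.34, Rrm2 at 54.3 ± 1.98, Mcm6 at 45.7 ± 2.68 and Dut at 44.0 ± 5.61 CPM per kilobase came in the same order, whereas Gmnn, at 32.5 ± 3.73, stood below Mcm4 (33.5 ± 1.24) and Mcm3 (33.5 ± 1.95), within their spread. Pcna, Rrm2 and Dut, which fell with LIN9 KO, were thus among the most abundant members by this measure. The order depends on the length used. Rrm1 had more CPM in LIN9 wt of experiment 1 (331, against 166 for Rrm2 and 165 for Pcna). With an exonic length of 11012 bases it ranked 12 per kilobase there. Gins1, which also fell, ranked 17 in LIN9 wt of experiment 1 and 21 in control of experiment 2. Gmnn and Mcm4 were not called with LIN9 KO in experiment 1 or, with Sav1 wt, in experiment 2.

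In LIN9 KO against LIN9 wt of experiment 1, 5 of the 47 tested members were lower and 1 was higher by the quasi-likelihood test of edgeR, adjusted over all genes by the Benjamini-Hochberg method at a threshold of 0.05. Over all genes tested, 9.78% were lower and 11.1% higher. Log2 fold changes were below 0 in 24 of the 47 (48.4% of all genes), with a median of -0.0022, beside 0.016 over all genes. Groups without overlap were found for 8 members that were lower (background 18.1%) and 4 that were higher (background 18.4%). In experiment 2, with Sav1 wt, 7 members were lower and 2 higher, where 10.5% of all genes were lower and 12.8% higher, and 31 of 47 were below 0 (48% of all genes), with a median of -0.13, beside 0.0086. Here the groups did not overlap in 10 members that were lower (background 16.8%) and 1 that was higher (background 18.4%). The members called, in either direction, went from 6 to between 2 and 7 in experiment 1 and from 9 to between 4 and 14 in experiment 2 when 1 library was left out, and to 3 and 4 with DESeq2, so their share is not set apart from that of all genes here. In both experiments 4 members were lower (Rrm2, Dut, Pcna and Gins1) and 0 were higher, where 6.77% and 8.08% of all genes tested in both were.

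Among the nucleotide supply genes, 2 of the 4 tested members fell in each experiment (9.78% and 10.5% of all genes did). Rrm2 was at 157, 189 and 152 CPM in LIN9 wt and at 105, 112 and 97.4 CPM in LIN9 KO of experiment 1, and at 152, 155 and 144 CPM in control and 92.7, 69.9 and 80.2 CPM in LIN9 KO of experiment 2. Every LIN9 KO library lay below every LIN9 wt library of its experiment. The log2 fold change was -0.67 (SE 0.11, adjusted p = 0.000585) in experiment 1 and -0.89 (SE 0.11, adjusted p = 7.54e-07) in experiment 2.

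Dut was at 106, 112 and 119.5 CPM in LIN9 wt and at 81.8, 80.1 and 85.2 CPM in LIN9 KO of experiment 1, and at 122, 97.99 and 98.6 CPM in control and 71.7, 60.0 and 73.8 CPM in LIN9 KO of experiment 2. Here too the groups did not overlap in either experiment. Dut fell by 0.45 on the log2 scale (SE 0.10, adjusted p = 0.0039) and by 0.63 (SE 0.12, adjusted p = 0.000281).

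Rrm1, the large subunit that pairs with Rrm2 in ribonucleotide reductase, was at 325, 370.2 and 298 CPM in LIN9 wt and at 340.0, 337 and 368 CPM in LIN9 KO of experiment 1. It was at 318, 283 and 287 CPM in control and at 319.5, 247 and 265 CPM in LIN9 KO of experiment 2. The groups overlapped in both experiments, with log2 fold changes of 0.073 (SE 0.11, adjusted p = 0.719) and -0.094 (SE 0.10, adjusted p = 0.571). The ratio of Rrm2 to Rrm1 CPM, a comparison chosen after the values were seen, was therefore lower in LIN9 KO: it was 0.483, 0.512 and 0.51 in LIN9 wt and 0.308, 0.332 and 0.265 in LIN9 KO of experiment 1, and 0.479, 0.547 and 0.503 in control and 0.29, 0.283 and 0.302 in LIN9 KO of experiment 2. Tyms, the thymidylate synthase that makes dTMP, was not called in either experiment (0.098, adjusted p = 0.555, and -0.16, adjusted p = 0.469).

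**Figure D1:**
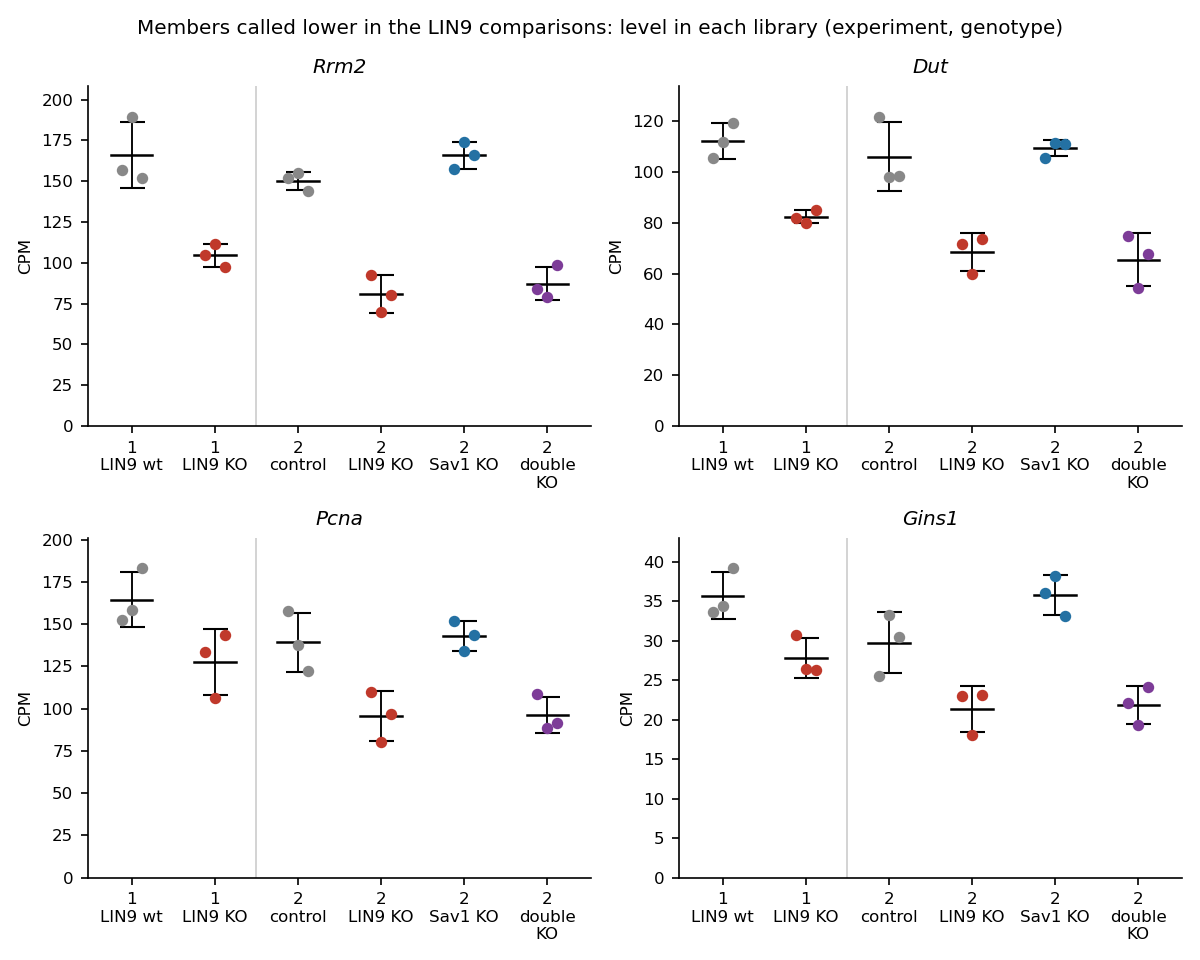
CPM of selected members in each of the 18 libraries (vertical axis, from 0), by genotype group and experiment. Points are libraries, bars the mean and error bars the SD of 3 libraries. Rrm2 lies between 144 and 189 CPM in the LIN9 wt libraries with Sav1 wt and between 69.9 and 112 CPM in LIN9 KO.

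At the replication fork, 2 of the 16 tested members fell in each experiment (9.78% and 10.5% of all genes did) and 1 rose in each (11.1% and 12.8%). Pcna, the sliding clamp, was at 152, 158 and 183 CPM in LIN9 wt and at 134, 106 and 144 CPM in LIN9 KO of experiment 1, and at 158, 138 and 122 CPM in control and 109.8, 80.4 and 96.9 CPM in LIN9 KO of experiment 2. The groups did not overlap, with log2 fold changes of -0.37 (SE 0.12, adjusted p = 0.0454) and -0.54 (SE 0.12, adjusted p = 0.00118). In experiment 1 the call lay close to the threshold and was lost in 6 of 12 alternative analyses.

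Gins1 and Gins4 encode subunits of the same GINS complex, which activates the helicase. Gins1 was at 33.7, 34.4 and 39.2 CPM in LIN9 wt and at 30.8, 26.4 and 26.3 CPM in LIN9 KO of experiment 1, and at 25.6, 33.2 and 30.4 CPM in control and 23.0, 18.04 and 23.1 CPM in LIN9 KO of experiment 2. It fell without overlap of the groups, by 0.36 (SE 0.12, adjusted p = 0.0385) and by 0.48 (SE 0.16, adjusted p = 0.0278) on the log2 scale, and lost the call in 6 of 12 and 4 of 13 alternative analyses.

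Gins4 went the other way, at 39.1, 42.2 and 40.9 CPM in LIN9 wt and 45.6, 48.1 and 58.9 CPM in LIN9 KO of experiment 1, and at 34.9, 36.7 and 35.3 CPM in control and 49.0, 44.6 and 51.8 CPM in LIN9 KO of experiment 2. All LIN9 KO libraries lay above the LIN9 wt libraries of their experiment. It rose in experiment 2 (0.44, SE 0.13, adjusted p = 0.0151) and missed the threshold in experiment 1 (0.32, SE 0.11, adjusted p = 0.0574). The call in experiment 2 was lost in 5 of 13 alternative analyses, DESeq2 among them. In experiment 1 Gins4 passed the threshold with no filter on low counts (adjusted p = 0.0378) or a mean count above 10 (0.0491). It also did so with a replicate block (0.0287) and without LIN9 KO replicate 1 (0.0445), so its calls do not separate the experiments. The ratio of Gins1 to Gins4 CPM, also chosen after the values were seen, was 0.861, 0.815 and 0.957 in LIN9 wt and 0.675, 0.549 and 0.447 in LIN9 KO of experiment 1, and 0.733, 0.907 and 0.863 in control and 0.47, 0.404 and 0.446 in LIN9 KO of experiment 2. Gins3 was not called in either (0.15, adjusted p = 0.462, and 0.028, adjusted p = 0.931).

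Mcm10, which helps the helicase to start, was the member that rose in experiment 1. It was at 30.8, 34.5 and 26.1 CPM in LIN9 wt and at 40.1, 43.0 and 36.9 CPM in LIN9 KO, with no overlap (0.39, SE 0.12, adjusted p = 0.0312), and lost the call in 5 of 12 alternative analyses, 4 of which left out a library. In experiment 2 it was at 28.9, 26.04 and 34.6 CPM in control and at 33.5, 28.5 and 36.2 CPM in LIN9 KO, and the groups overlapped (0.13, SE 0.16, adjusted p = 0.618). At each replicate number Mcm10 was higher in LIN9 KO, but a replicate block did not bring it past the threshold. The RPA subunits, which coat single-stranded DNA, the RFC subunits, which load PCNA, and Cdc45, Fen1 and Lig1 were not called in either experiment.

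**Figure D2:**
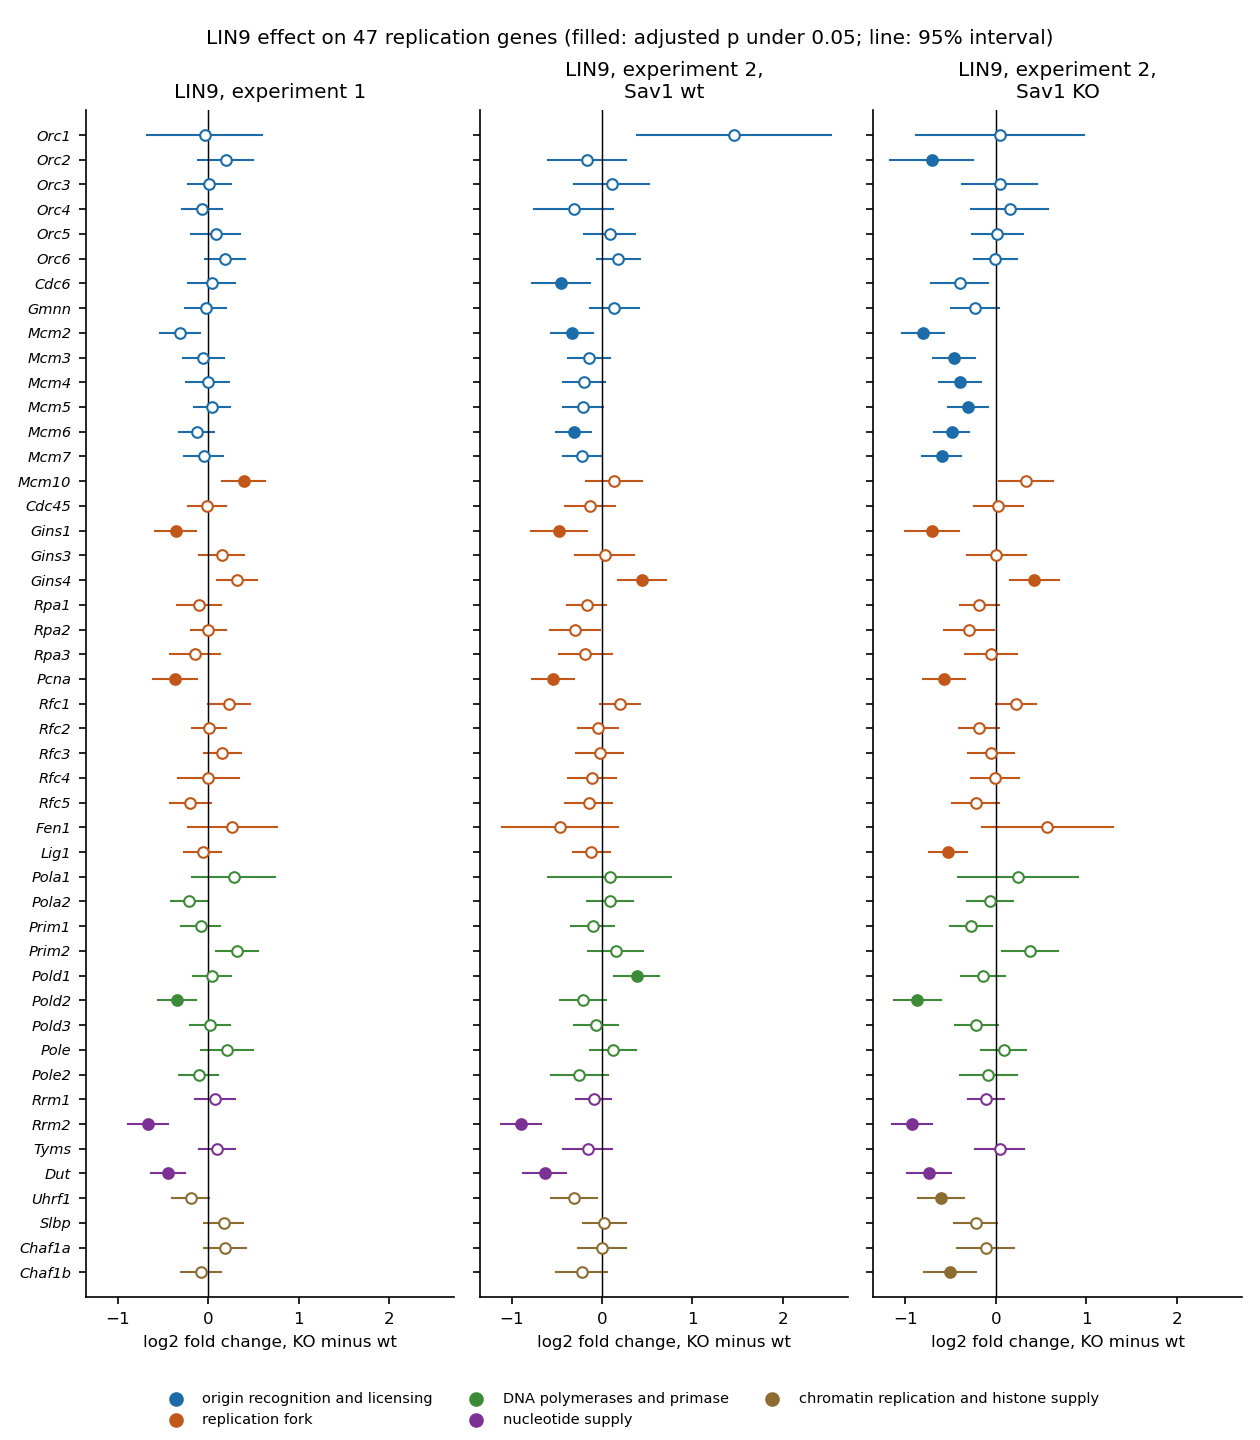
Log2 fold change of LIN9 KO against LIN9 wt for each tested member, in experiment 1 and in both Sav1 backgrounds of experiment 2, ordered by role. Filled points have an adjusted p under 0.05 and lines are 95% intervals. Rrm2 is at -0.67, -0.89 and -0.93, and Gins4 lies above 0 in each.

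Among the origin recognition and licensing genes, 0 of 14 were called in experiment 1 (9.78% of all genes were lower and 11.1% higher). In experiment 2, 3 were lower, namely Cdc6, Mcm2 and Mcm6 (10.5% of all genes were lower). The list's median log2 fold change was -0.018 in experiment 1 and -0.18 in experiment 2. Mcm2 was at 152, 184 and 139 CPM in LIN9 wt and 125, 132 and 125 CPM in LIN9 KO of experiment 1 (-0.31, SE 0.11, adjusted p = 0.0651), and at 151, 149.7 and 141 CPM in control and 135, 107 and 108 CPM in LIN9 KO of experiment 2 (-0.34, SE 0.12, adjusted p = 0.0381). The groups did not overlap in either experiment. The call in experiment 2 was lost in 6 of 13 alternative analyses, and in experiment 1 Mcm2 passed the threshold in 4 of 12, so its calls do not separate the experiments.

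Of the 6 genes of the MCM2-7 helicase, 5 had a log2 fold change below 0 in experiment 1 (48.4% of all genes), with 0 called, and 6 in experiment 2 (48% of all genes), with 2 called (9.78% and 10.5% of all genes were called lower). Mcm6 was at 227, 211 and 202 CPM in control and at 194, 161 and 159.6 CPM in LIN9 KO (-0.32, SE 0.10, adjusted p = 0.0175), and lost the call in 2 of 13 alternative analyses. Cdc6, the loader of MCM2-7, was at 28.6, 26.7 and 30.4 CPM in control and at 21.7, 19.4 and 21.6 CPM in LIN9 KO of experiment 2 (-0.45, SE 0.16, adjusted p = 0.0419), without overlap, but at 29.5, 34.4 and 28.8 CPM in LIN9 wt and 35.7, 33.5 and 25.9 CPM in LIN9 KO of experiment 1 (0.037, adjusted p = 0.882). The call of Cdc6 was lost in 4 of 13 alternative analyses. None of the ORC subunits 1 to 6 was called in either experiment.

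Orc1, with few reads, had a log2 fold change of 1.46 (SE 0.55, adjusted p = 0.0532) in experiment 2. A fit with replicates as a block gave 1.47 (adjusted p = 0.0465), which would add it to the genes called higher. Geminin (Gmnn) was not called (-0.029, adjusted p = 0.893, and 0.14, adjusted p = 0.546).

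Of the 9 polymerase and primase subunits, Pold2 fell in experiment 1 (9.78% of all genes did) and Pold1 rose in experiment 2 (12.8% of all genes did). Pold2, the second subunit of polymerase delta, was at 60.1, 67.1 and 61.2 CPM in LIN9 wt and at 43.6, 53.3 and 51.3 CPM in LIN9 KO of experiment 1, with no overlap (-0.35, SE 0.11, adjusted p = 0.0312), and lost the call in 5 of 12 alternative analyses. In experiment 2 it was at 60.2, 49.3 and 53.3 CPM in control and 50.9, 47.2 and 42.5 CPM in LIN9 KO (-0.21, SE 0.13, adjusted p = 0.275), and the groups overlapped. At each replicate number Pold2 was lower in LIN9 KO, but a replicate block did not bring it past the threshold.

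Pold1, the catalytic subunit of polymerase delta, was at 75.8, 64.1 and 62.6 CPM in control and at 104, 87.3 and 71.6 CPM in LIN9 KO of experiment 2 (0.38, SE 0.12, adjusted p = 0.0254). The groups overlapped, and the call was lost in 6 of 13 alternative analyses, with an adjusted p of 0.222 without LIN9 KO replicate 1. In experiment 1 it was at 72.1, 73.7 and 61.6 CPM in LIN9 wt and at 68.5, 77.7 and 66.6 CPM in LIN9 KO (0.038, adjusted p = 0.856). The subunits of polymerase alpha and primase (Pola1, Pola2, Prim1 and Prim2), which start each new strand, and those of the leading strand polymerase epsilon (Pole and Pole2) were not called in either experiment.

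Of the 4 genes of chromatin replication and histone supply, 0 were called in either experiment. Of all genes, 9.78% and 10.5% were lower and 11.1% and 12.8% higher. Uhrf1, which keeps DNA methylation at the fork, was at 84.8, 83.2 and 85.1 CPM in control and at 71.3, 72.2 and 60.8 CPM in LIN9 KO of experiment 2 (-0.31, SE 0.13, adjusted p = 0.0929), with no overlap. Slbp, which binds the stem-loop of histone mRNAs, and Chaf1a and Chaf1b, subunits of the histone chaperone CAF-1, had log2 fold changes between -0.23 and 0.19 in both.

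The LIN9 effect was also compared between the experiments, which share no library. Over the 47 members the log2 fold changes had a Pearson correlation of 0.518 and a Spearman correlation of 0.627, and 34 (72.3%) had the same sign. Over all 17656 genes tested in both, these were 0.686, 0.684 and 77.6%. The points of a panel share libraries, so this is a description. Without Orc1 and Fen1, which rest on few reads, the members' correlations were 0.788 and 0.73. In a fit over all 18 libraries, 0 of 47 members (0% of 18737 genes) differed in LIN9 effect between experiments. At an unadjusted p under 0.05 there were 2 members, Cdc6 and Orc1 (4.26%, against 5.72% of all genes), and DESeq2 called 0. The effect was lower in experiment 2 for 38 of 47 members, where 49% of all genes had a difference below 0, and the median difference was -0.12 beside 0.0079 over all genes.

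**Figure D3:**
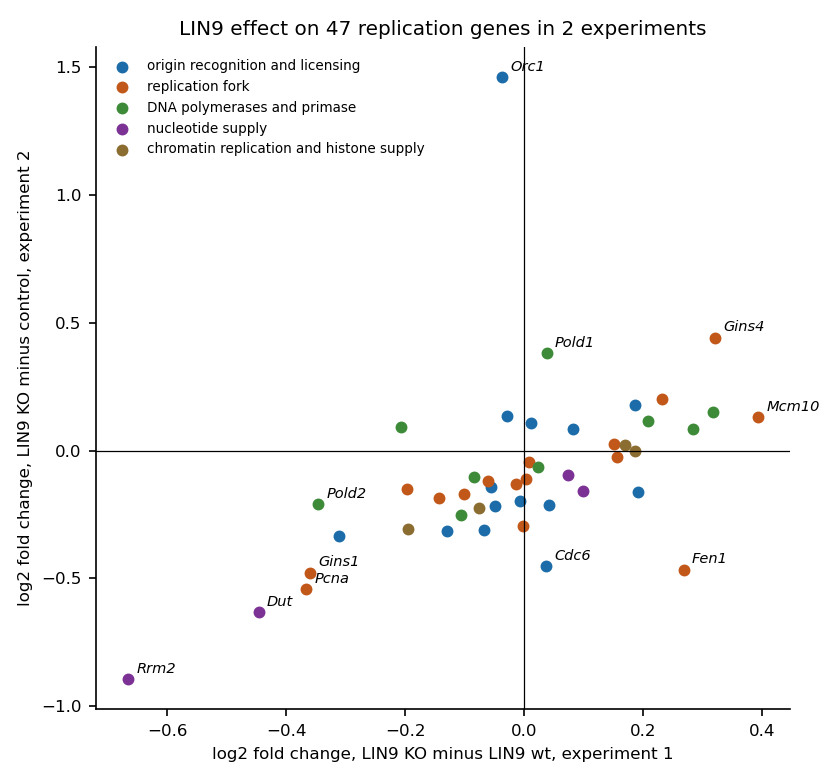
Log2 fold change of LIN9 KO against LIN9 wt (Sav1 wt) in experiment 1 (horizontal axis) and experiment 2 (vertical axis) for the 47 tested members, by role. Rrm2 and Dut lie farthest to the lower left, and Gins1 and Pcna are also below 0 on both axes.

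In the Sav1 KO background of experiment 2 (double KO against Sav1 KO), 15 members were lower and 1 was higher with LIN9 KO, where 11.6% of all genes were lower and 11.8% higher. Log2 fold changes were below 0 in 33 of 47 (47.9% of all genes), with a median of -0.18, beside 0.032 over all genes. Groups were apart for 19 members that were lower (background 19.2%) and 3 that were higher (background 21.9%). Rrm2 was at 158, 174 and 166 CPM in Sav1 KO and at 83.8, 79.2 and 98.9 CPM in double KO (-0.93, SE 0.11, adjusted p = 4.04e-07), and Dut at 106, 111 and 111 CPM and at 74.7, 54.2 and 67.6 CPM (-0.74, SE 0.12, adjusted p = 4.32e-05). Neither gene's groups overlapped. In both Sav1 backgrounds 6 members were lower (Dut, Gins1, Mcm2, Mcm6, Pcna and Rrm2, background 7.06%) and 1 was higher (Gins4, background 7.91%). In all 3 comparisons of LIN9 genotypes, 4 members were lower (Dut, Gins1, Pcna and Rrm2, background 5.53%) and 0 higher (background 6.47%). The comparisons within experiment 2 share no group with each other.

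Of the licensing genes 7 of 14 were lower here (11.6% of all genes were), namely Orc2 and the 6 genes of the MCM2-7 helicase. The nucleotide supply and chromatin replication genes had the same share, with 2 of 4 lower in each. Orc2 rested on 19 to 44 counts per library and lost the call in 5 of 13 alternative analyses. Mcm2 was at 186, 167 and 166 CPM in Sav1 KO and at 84.5, 92.6 and 119.9 CPM in double KO (-0.81, SE 0.12, adjusted p = 8.4e-06). Mcm7 was at 101, 98.6 and 113 CPM and at 63.7, 73.6 and 68.7 CPM (-0.60, SE 0.11, adjusted p = 0.000136). The groups of all 6 MCM2-7 genes did not overlap. Mcm6 (-0.49, adjusted p = 0.000409), Mcm3 (-0.46, adjusted p = 0.0055), Mcm4 (-0.40, adjusted p = 0.0148) and Mcm5 (-0.31, adjusted p = 0.0455) fell less, and the calls of Mcm4 and Mcm5 were lost in 2 and 8 of 13 alternative analyses.

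**Figure D4:**
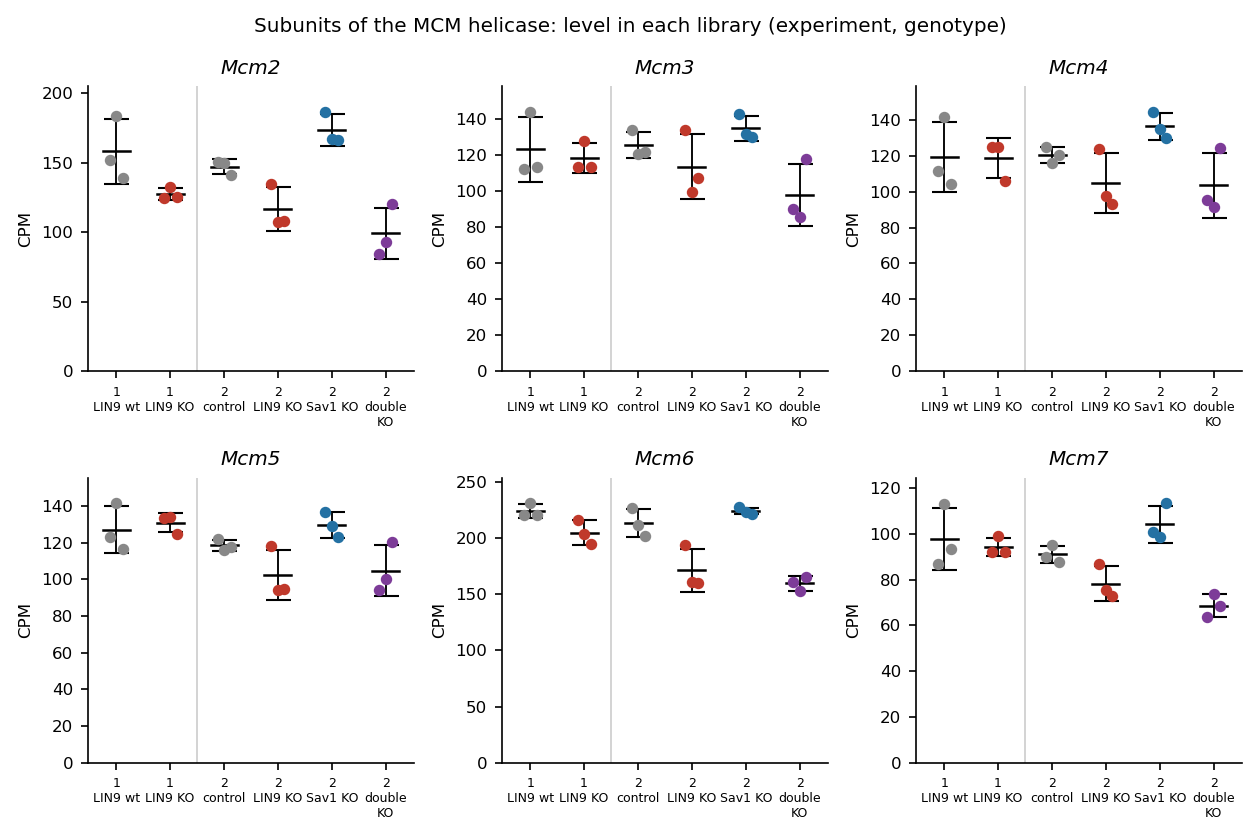
CPM of the 6 genes of the MCM2-7 helicase in each of the 18 libraries (vertical axis, from 0), by experiment and genotype group. Points are libraries, bars the mean and error bars the SD of 3 libraries. Every double KO library lies below every Sav1 KO library for each of the 6 genes.

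At the fork, Lig1, the ligase that joins Okazaki fragments, was at 121, 114 and 116 CPM in Sav1 KO and at 72.3, 78.2 and 92.5 CPM in double KO (-0.53, SE 0.11, adjusted p = 0.000436). Gins1 fell from 36.0, 38.2 and 33.1 CPM to 22.2, 19.4 and 24.2 CPM (-0.71, SE 0.15, adjusted p = 0.00115). Pcna fell by 0.57 on the log2 scale (SE 0.12, adjusted p = 0.000687), from 152, 134 and 144 CPM to 108, 88.4 and 91.8 CPM. Gins4 rose from 32.3, 26.7 and 30.4 CPM to 46.4, 36.6 and 37.0 CPM (0.43, SE 0.14, adjusted p = 0.0251), a call lost in 4 of 13 alternative analyses. For each of these 4 genes the groups did not overlap.

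Pold2 was at 59.6, 50.0 and 67.2 CPM in Sav1 KO and at 31.7, 31.7 and 33.4 CPM in double KO (-0.87, SE 0.13, adjusted p = 1.86e-05). Its double KO libraries were the lowest of all 18. Uhrf1 was at 98.9, 92.9 and 95.2 CPM and at 50.8, 55.6 and 81.8 CPM (-0.61, SE 0.13, adjusted p = 0.000962), and Chaf1b fell by 0.51 on the log2 scale (SE 0.15, adjusted p = 0.011). The groups of both genes did not overlap. Rrm1 and Tyms were again not called (-0.11, adjusted p = 0.48, and 0.041, adjusted p = 0.87).

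Markers of cell types moved with the LIN9 genotype in these whole ventricles. Of the 9 cardiomyocyte markers Actc1 was at 0 in all libraries, and 6 of the other 8 were lower with LIN9 KO in each of the 3 comparisons. The summed level of that list was 21290 to 21740 CPM in LIN9 wt and 9508 to 13180 CPM in LIN9 KO of experiment 1, 23620 to 24800 CPM in control and 11570 to 12960 CPM in LIN9 KO of experiment 2, and 25430 to 26500 CPM in Sav1 KO and 11620 to 14400 CPM in double KO. Of the 10 erythroid markers Alas2 was at 0 in all libraries and Klf1 in Sav1 KO replicate 2, and the other 9 were higher in each comparison. Their sum was 2078 to 3714 CPM and 16540 to 42240 CPM in experiment 1, 1278 to 1662 CPM and 9855 to 18170 CPM in experiment 2, and 877 to 1203 CPM and 4559 to 13500 CPM in the Sav1 KO background.

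The 6 epicardial markers were summed to 279 to 293 CPM in LIN9 wt and 496 to 561 CPM in LIN9 KO of experiment 1, 253 to 257 and 440.2 to 564 CPM in experiment 2, and 213 to 250.4 and 427 to 439 CPM in the Sav1 KO background, with 5 called higher in each. The 6 fibroblast markers (1881 to 2151 against 3847 to 4162 CPM, 2480 to 2678 against 4258 to 5333 CPM, and 2415 to 2879 against 4401 to 5493 CPM) had 5, 5 and 6 called higher. The 6 macrophage markers (92.7 to 96.6 against 177 to 193 CPM, 93.0 to 96.4 against 161 to 200.5 CPM, and 75.3 to 92.1 against 193 to 219.5 CPM) had 6, 4 and 5 called higher. The 8 endothelial markers (1030 to 1317 against 1223 to 1594 CPM, 1140 to 1185 against 1250 to 1381 CPM, and 996 to 1078 against 1140 to 1341 CPM) had 3, 3 and 5 called higher and 0, 1 and 1 called lower. The part of these shifts in the members' values was not tested, and in whole ventricles fewer cells of a type and less RNA per cell cannot be told apart.

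Deletion of Sav1 in LIN9 wt ventricles (Sav1 KO against control) gave 0 members past the threshold, where 0.017% of all genes (3 of 17675) were. Unadjusted p was under 0.05 for 2 members (4.26%, against 3.92% of all genes), and DESeq2 called 0. The log2 fold changes were mostly above 0, in 41 of 47 members, where 50% of all genes were above 0. They ranged from -0.97 (Fen1) to 1.22 (Orc1). Their median was 0.093, beside 0.0001 over all genes, and lay between 0.042 (without control replicate 2) and 0.11 when 1 library was left out. The groups did not overlap in 11 members that were higher (Gmnn, Mcm2, Mcm4, Mcm5, Mcm7, Lig1, Pola2, Prim1, Rrm2, Uhrf1 and Slbp, background 5.97%) and in 2 that were lower (Gins4 and Fen1, background 6.14%).

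All 14 licensing genes had a log2 fold change above 0, with a median of 0.12, and those of the 6 MCM2-7 genes lay between 0.072 and 0.24. Mcm2 had 151, 149.7 and 141 CPM in control and 186, 167 and 166 CPM in Sav1 KO (0.24, SE 0.12, adjusted p = 0.999). Gmnn was at 53.9, 43.5 and 45.7 CPM and at 58.9, 57.1 and 57.7 CPM (0.28, SE 0.14, adjusted p = 0.999). Lig1 was at 104, 97.0 and 106 CPM and at 121, 114 and 116 CPM (0.20, SE 0.10, adjusted p = 0.999). These 3 genes were higher in all 3 Sav1 KO libraries, by amounts that did not pass the test.

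The lowest p-values fell on the 2 members with the fewest reads. Fen1 was at 6.98, 5.48 and 5.53 CPM in control and at 1.68, 4.39 and 3.07 CPM in Sav1 KO (-0.97, SE 0.35, adjusted p = 0.999), and Orc1 at 0.665, 0.685 and 2.08 CPM and at 3.70, 1.69 and 2.73 CPM (1.22, SE 0.57, adjusted p = 0.999). Rrm2 was at 110% of control (95% interval 95.4% to 128%) and Dut at 103% (87.8% to 121%). No cell type marker list had a called gene in this comparison, and beside the members' shift the summed cardiomyocyte markers were 23620 to 24800 CPM in control and 25430 to 26500 CPM in Sav1 KO. Without overlap, sums were lower in Sav1 KO for the erythroid (1278 to 1662 and 877 to 1203 CPM), endothelial (1140 to 1185 and 996 to 1078 CPM), epicardial (253 to 257 and 213 to 250.4 CPM) and macrophage markers (93.0 to 96.4 and 75.3 to 92.1 CPM), while those of the fibroblast markers overlapped (2480 to 2678 and 2415 to 2879 CPM). The part of these moves in the members' values was not tested.

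**Figure D5:**
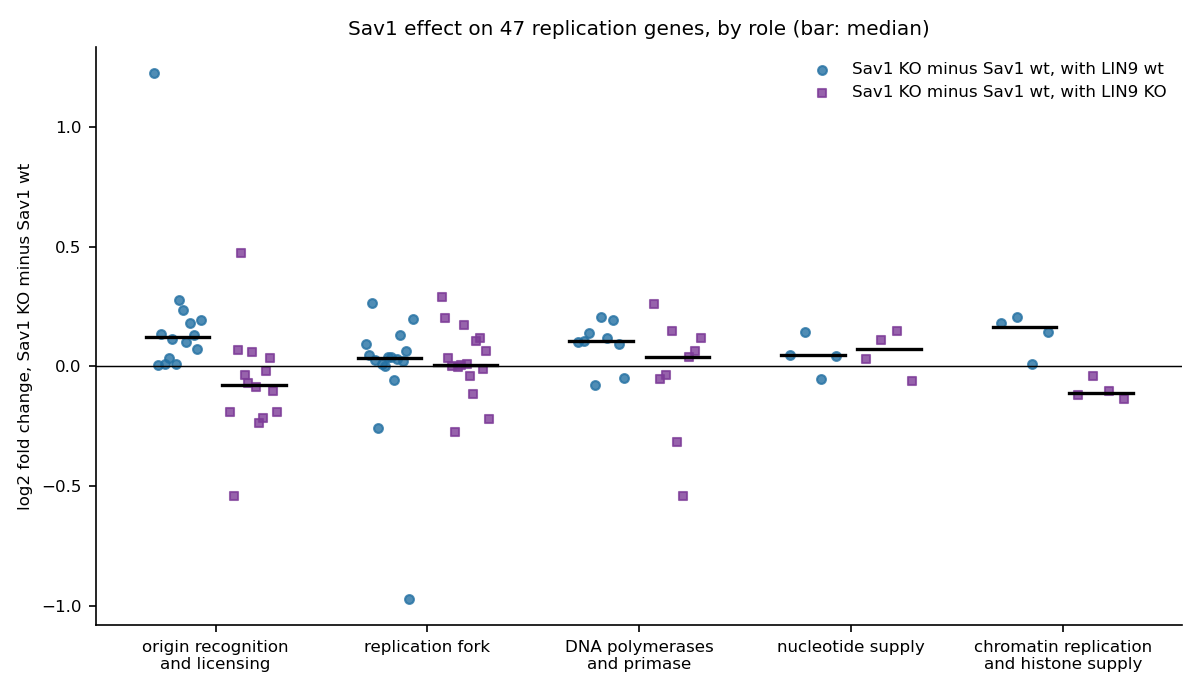
Log2 fold change of Sav1 KO against Sav1 wt for each tested member in LIN9 wt and in LIN9 KO ventricles, by role. Points are members and bars the median of each role. In LIN9 wt 41 of the 47 members lie above 0, and in LIN9 KO 22 do.

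In LIN9 KO ventricles (double KO against LIN9 KO), 0 members passed the threshold for Sav1 as well (0.0113% of all genes), with 4 at an unadjusted p under 0.05 (8.51%, against 11.8% of all genes) and 0 called by DESeq2. The log2 fold changes were below 0 in 25 members (49.9% of all genes) and above 0 in 22, with a median of -0.0096 beside 0.0009 over all genes. Only 2 members that were lower had groups without overlap (Orc2 and Pold2, background 7.88%), as had 2 that were higher (Orc4 and Rfc4, background 7.2%). Pold2 ranked first, at 50.9, 47.2 and 42.5 CPM in LIN9 KO and 31.7, 31.7 and 33.4 CPM in double KO (-0.54, SE 0.14, adjusted p = 0.127). Pold2 passed the threshold without LIN9 KO replicate 3 (adjusted p = 0.0269) and without a filter on low counts (adjusted p = 0.0191).

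Pold1 was at 104, 87.3 and 71.6 CPM in LIN9 KO and at 64.8, 74.0 and 73.6 CPM in double KO (-0.31, SE 0.12, adjusted p = 0.303), Orc2 at 12.2, 11.8 and 13.8 CPM and at 11.2, 7.75 and 6.76 CPM (-0.54, SE 0.24, adjusted p = 0.371). Gins4 was at 49.0, 44.6 and 51.8 CPM and at 46.4, 36.6 and 37.0 CPM (-0.27, SE 0.13, adjusted p = 0.413), and Lig1 at 97.3, 95.5 and 89.5 CPM and at 72.3, 78.2 and 92.5 CPM (-0.22, SE 0.11, adjusted p = 0.431). Of these 4 genes only Orc2 had groups without overlap.

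Whether the effect of LIN9 differed between the Sav1 backgrounds was tested as an interaction. It was past the threshold for 0 members (0% of all genes), and DESeq2 called 0. At an unadjusted p under 0.05 there were 6 members, 12.8% beside 6.54% of all genes. The LIN9 effect was lower in the Sav1 KO background for 34 of 47 members (background 50.1%), with a median difference of -0.074 beside -0.0009 over all genes, and for each of the 6 MCM2-7 genes, by 0.096 to 0.47. The larger number of members called in the Sav1 KO background was therefore not shown to be a difference between backgrounds.

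The lowest p-values of the interaction fell on Pold2 (-0.66, SE 0.19), Pold1 (-0.52, SE 0.18), Mcm2 (-0.47, SE 0.17) and Lig1 (-0.41, SE 0.15), each with an adjusted p of 0.678, and on Mcm7 (-0.38, SE 0.15, adjusted p = 0.696). For Rrm2 it was -0.033 (95% interval -0.34 to 0.27) and for Dut -0.11 (-0.45 to 0.23).

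In double KO against control, 12 members were lower and 0 higher, where 9.96% of all genes were lower and 10.7% higher, and 29 of 47 were below 0 (47.4% of all genes), with a median of -0.10 beside 0.035 over all genes. Without overlap of the groups were 15 members that were lower (background 17.6%) and 2 that were higher (background 19.8%). Of the 12, 5 were licensing genes (Orc2, Mcm2, Mcm3, Mcm6 and Mcm7), 3 fork genes (Gins1, Pcna and Lig1), 2 nucleotide supply genes (Rrm2 and Dut), and the others Pold2 and Uhrf1. Rrm2 was at 58.1% of control (log2 fold change -0.78, SE 0.11, adjusted p = 6.99e-06), Dut at 61.8% (-0.70, SE 0.12, adjusted p = 0.000116), Pold2 at 59.5% (-0.75, SE 0.14, adjusted p = 0.000162), Mcm2 at 67.3% (-0.57, SE 0.12, adjusted p = 0.000768) and Pcna at 69.1% (-0.53, SE 0.12, adjusted p = 0.00164). For these 5 genes, whose values in each library are given above, every double KO library lay below every control library. In the alternative analyses these 5 kept their calls, as did Mcm6 and Mcm7, whereas Orc2, Mcm3, Gins1 and Lig1 lost theirs in 5 of 13 and Uhrf1 in 3. Cell type markers moved here as well: 6 of 8 tested cardiomyocyte markers were lower, and 8 of 9 erythroid, 6 of 6 fibroblast, 5 of 6 macrophage and 4 of 6 epicardial markers were higher, and their part in the members' values was not tested. This comparison shares its control and double KO libraries with those above. Its count of called members and its median moved when 1 library was left out, as given in the closing section.

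A list of 44 other replication and nucleotide genes, of which 43 were tested, was read beside the members. With LIN9 KO, 8 were lower and 2 higher in experiment 1, 11 and 2 in experiment 2, and 14 and 2 in the Sav1 KO background, where 9.78%, 10.5% and 11.6% of all genes were lower and 11.1%, 12.8% and 11.8% higher. The list had medians of -0.036, -0.22 and -0.24. Ctps, the CTP synthase, was at 149.9, 158 and 147 CPM in LIN9 wt and 114, 114 and 105 CPM in LIN9 KO of experiment 1 (-0.45, SE 0.10, adjusted p = 0.00375), and at 146, 142 and 135 CPM in control and 87.4, 79.7 and 74.6 CPM in LIN9 KO of experiment 2 (-0.81, SE 0.11, adjusted p = 4.02e-06). Its groups did not overlap in either experiment.

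Rrm2b, the other small subunit of ribonucleotide reductase, was at 35.9, 33.6 and 36.2 CPM and 26.8, 22.6 and 25.7 CPM in experiment 1 (-0.49, SE 0.11, adjusted p = 0.00572), and at 29.6, 43.5 and 33.6 CPM and 20.7, 26.9 and 21.2 CPM in experiment 2 (-0.63, SE 0.16, adjusted p = 0.00429). Dctd, the dCMP deaminase, was at 45.9, 60.9 and 54.3 CPM and 35.5, 44.2 and 36.6 CPM in experiment 1 (-0.47, SE 0.12, adjusted p = 0.0136), and at 48.5, 57.9 and 52.2 CPM and 41.1, 32.1 and 29.4 CPM in experiment 2 (-0.62, SE 0.15, adjusted p = 0.00244). The groups of both genes did not overlap. Ctps, Rrm2b and Dctd were taken for their decreases, so that they are lower is a description. Pold4, the smallest subunit of polymerase delta, rose in all 3 comparisons (0.73, adjusted p = 0.0227, 1.16, adjusted p = 0.00065, and 0.87, adjusted p = 0.0182), and was named after its values were seen. For the Sav1 comparisons 0 of the 43 were called.

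The late cell cycle genes for which the study listed primers give a scale for these changes, although the study chose them in work on these hearts. Of the 13 tested, 6, 5 and 7 were lower and 0 higher with LIN9 KO in experiment 1, experiment 2 and the Sav1 KO background (9.78%, 10.5% and 11.6% of all genes were lower and 11.1%, 12.8% and 11.8% higher), with medians of -0.38, -0.39 and -0.44. The replication members' medians in the same comparisons were -0.0022, -0.13 and -0.18.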

How the data were processed

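The authors mapped reads of polyadenylated RNA with TopHat 2.1.0 and Bowtie2 to mm10, brought libraries to the smallest mappable read number and counted reads on Ensembl genes (GRCm38.p6) with summarizeOverlaps. The overlap mode and strandedness are not given in the sources used here. The deposited files used here hold these counts, 1 table for each experiment. In each, 4 identifiers that occurred more than once, with identical counts, were kept once. Files with the authors' own fold changes and p-values were not used. The 4 ChIP samples (LIN9 and input) were not analysed here.

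After TMM scaling, the quasi-likelihood test of edgeR (4.0.16, R 4.3.3, robust) was run on the counts over all 19752 and 17675 genes with a mean count above 1. Experiment 2 shared 1 fit of 12 libraries, and the LIN9 effect was compared between experiments in a fit of all 18. Adjusted p-values are Benjamini-Hochberg values with a threshold of 0.05, and SEs and 95% intervals come from the fit. Alternatives included DESeq2 (1.42.0), scaling by total counts, no filter or a mean count above 10, only the 6 libraries compared, a replicate block, and leaving out each library. The code was tested on simulated data.

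The members and gene lists were chosen with earlier results of these data known. Values per library were given by rule: per role group, up to 4 members called in the same direction in both LIN9 comparisons with Sav1 wt, and the 5 members with the lowest p in each other comparison. From the other replication genes the rule took the 3 with the largest decreases called in both. Further members named with values, and Pold4, were chosen after their values were seen.

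Replicate numbers were checked for pairing by the correlation, over genes with a mean of at least 10 CPM, of same-numbered libraries' deviations from their group means. In experiment 2 it was above 0.1 for every number between LIN9 KO and control (0.306 to 0.686), Sav1 KO and control (0.135 to 0.373) and LIN9 KO and Sav1 KO (0.15 to 0.393), so these were taken as paired from the data alone. It was not for pairs with double KO (-0.118 to 0.172) or in experiment 1 (0.064 to 0.314). The main fits held no term for pairing in any comparison, and the replicate block was an alternative only.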

Additional observations from a re-analysis of the deposited data

How the results depend on the processing

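Under the alternatives, no result past the threshold changed direction, and Rrm2 and Dut kept their calls in all of them in the 3 comparisons of LIN9 genotypes and in double KO against control. Counts of members called moved more. In experiment 1 the 6 became 2 to 7 when 1 library was left out (2 without LIN9 wt replicate 1, 3 without replicate 2 or 3) and 3 with DESeq2. In experiment 2 the 9 became 4 to 14 (5 without control replicate 2 or 3, 14 without LIN9 KO replicate 1, 4 without LIN9 KO replicate 2, and 6 without LIN9 KO replicate 3, which stood apart) and 4 with DESeq2. In the Sav1 KO background the 16 became 13 to 17 when 1 library was left out and 13 with DESeq2. For Sav1 in LIN9 KO ventricles the 0 became 0 to 1 when 1 library was left out and 2 with no filter on low counts (Pold2, and Orc4 with adjusted p = 0.029). For double KO against control the 12 became 7 to 12 when 1 library was left out (7 without double KO replicate 2), 8 with DESeq2, and 13 with no filter on low counts or a mean count above 10. The causes of these moves were not tested.

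With a replicate block in the comparisons taken as paired from the data alone, Orc1 gained a call in experiment 2 (count 10). No other call changed in these comparisons. Elsewhere the libraries share only a number: there the block gave 9 members in experiment 1 (Mcm2, Prim2 and Gins4 gained, adjusted p = 0.0177, 0.0375 and 0.0287) and 13 in double KO against control (Mcm10, adjusted p = 0.0356).

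With 1 library left out, median log2 fold changes that moved by more than the spread between replicates covered these ranges. For LIN9 in experiment 1 they were -0.041 to 0.042 (all members). For LIN9 in experiment 2 they were -0.19 to -0.11 (all members), -0.24 to -0.15 (licensing), -0.10 to 0.13 (polymerases) and -0.28 to -0.083 (chromatin). For LIN9 in the Sav1 KO background they were -0.23 to -0.13 (all members), -0.45 to -0.30 (licensing), -0.16 to -0.041 (fork) and -0.19 to -0.0202 (polymerases). For Sav1 in LIN9 wt they were 0.042 to 0.11 (all members) and 0.0034 to 0.054 (fork). For Sav1 in LIN9 KO they were -0.059 to 0.036 (all members), -0.11 to -0.012 (licensing) and -0.045 to 0.10 (fork). For double KO against control they were -0.17 to -0.051 (all members), -0.36 to -0.17 (licensing), -0.20 to -0.044 (fork) and -0.049 to 0.088 (polymerases). For the interaction they were -0.14 to -0.045 (all members), -0.25 to -0.12 (licensing), -0.087 to 0.053 (fork), -0.17 to 0.018 (polymerases) and -0.10 to 0.10 (nucleotide supply). For the difference between experiments they were -0.18 to -0.11 (all members), -0.22 to -0.093 (licensing), -0.19 to -0.074 (fork) and -0.16 to 0.0196 (polymerases).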
